A study of Homo sapiens with 35 samples.

Results

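The genes described here are 40 genes of the lysosome and of autophagy, taken by symbol from a table of raw read counts for 60665 genes. All 40 were found, and all 40 passed the filter on low counts, which left 19275 genes to test. By role they comprise 3 proteins of the lysosomal membrane (LAMP1, LAMP2, MCOLN1), 6 lysosomal proteases (CTSA, CTSB, CTSD, CTSL, CTSZ, TPP1), 7 glycosidases and their activator (NEU1, GLB1, HEXA, GUSB, GAA, NAGLU, PSAP) and 4 proton pump genes (ATP6V0D1, ATP6V1H, ATP6V1B2, ATP6AP1). They further comprise 3 transcription factors (TFEB, TFE3, MITF), 2 cargo receptors (SQSTM1, NBR1), 4 ATG8 proteins (MAP1LC3B, GABARAP, GABARAPL1, GABARAPL2), 3 genes of the initiating kinase (ULK1, ULK2, ATG13), 3 of the lipid kinase complex (BECN1, ATG14, UVRAG) and 5 of membrane growth and conjugation (ATG5, ATG7, ATG9A, WIPI1, WIPI2).

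The cells were HEK293T, an established human embryonic kidney line. Total RNA was measured 72 h after transfection with 5 nM of a siPOOL, a mixture of small interfering RNAs against 1 transcript, and every control also received a siPOOL, of the control kind. The 35 libraries form 15 groups in 3 sets, and each main comparison lies within 1 set. The first set, numbered 1 and 2, holds 3 control libraries and, in 5 depletions that share those controls, 2 libraries for each of TSPYL2, ZEB1, ZNF608, ZNF687 and ZNF609. The second set, numbered 3 and 4, holds 4 control libraries and 2 libraries each with siPOOLs against INTS13, a subunit of the Integrator complex that cleaves nascent RNA, against HDGF and against ZNF655. It also holds 4 control libraries, 2 INTS13 libraries and 2 HDGF libraries from cells kept without glucose for 24 h. No label names the controls of ZNF655, and its place in the second set was a choice made here. The glucose-fed controls of the second set were used for it, so INTS13, HDGF and ZNF655 share controls. The third set holds 2 libraries with a siPOOL against ZMYND8 and 2 controls labelled for it. These are numbered 3 and 4 as well, so the numbers do not tell whether ZNF655 belongs with the second or the third set. No label says whether replicates came from separate cultures, and the spread that enters the p-values may therefore be technical.

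Lysosomes break down proteins, glycans and lipids with acid hydrolases, and a V-ATPase proton pump keeps them acid. In autophagy a membrane grows around cargo, closes and fuses with the lysosome: the ULK kinase starts it, the BECN1 lipid kinase complex marks the site, and ATG8 proteins are attached to the membrane and bind cargo receptors such as SQSTM1. The transcription factors TFEB, TFE3 and MITF leave the cytoplasm when nutrients run short and bind E-box sequences with the core CACGTG in the promoters of many of these genes.

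The core CACGTG, which reads the same on both strands, was searched in the RefSeq promoter windows of GRCh38.p14, from 250 bases before to 50 bases after each start. Windows were found for 32 of the 40 genes, 41 windows in all, and 8 of them (19.5%) held the core, beside 7.26% of all 35116 windows and 9.16% of the 17146 windows of genes that were tested. The longer form TCACGTGA, which includes the core, stood in 5 of the 41 windows (12.2%), in 0.98% of all windows and in 1.56% of the windows of genes tested. A match is a description of the letters and not a measured binding site. The stretches upstream of the start are shown with the core in capitals, because NEU1, LAMP1, CTSA, GAA, ATP6V0D1 and ATG14 carry results below, while CTSD and MCOLN1 hold the core and passed the test in no comparison with controls.
NEU1, chr6:31862922-31862967, minus strand: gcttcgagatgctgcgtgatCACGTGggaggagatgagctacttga
LAMP1, chr13:113297027-113297236, plus strand: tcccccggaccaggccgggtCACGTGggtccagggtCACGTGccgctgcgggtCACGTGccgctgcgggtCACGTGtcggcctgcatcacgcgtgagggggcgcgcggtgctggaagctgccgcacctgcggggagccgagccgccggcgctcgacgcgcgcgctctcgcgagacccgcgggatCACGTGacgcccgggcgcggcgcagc
CTSA, chr20:45891273-45891334, plus strand: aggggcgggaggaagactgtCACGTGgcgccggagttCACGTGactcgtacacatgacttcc
GAA, chr17:80101485-80101575, plus strand: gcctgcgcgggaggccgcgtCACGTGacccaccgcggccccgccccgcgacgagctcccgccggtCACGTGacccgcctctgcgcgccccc
ATP6V0D1, chr16:67481191-67481236, minus strand: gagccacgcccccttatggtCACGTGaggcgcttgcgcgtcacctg
ATG14, chr14:55411831-55411871, minus strand: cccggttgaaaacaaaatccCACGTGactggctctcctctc
CTSD, chr11:1763949-1763994, minus strand: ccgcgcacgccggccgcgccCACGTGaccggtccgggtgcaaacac
MCOLN1, chr19:7522563-7522623, plus strand: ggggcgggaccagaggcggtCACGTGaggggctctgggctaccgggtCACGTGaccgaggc

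Levels are given in CPM, the counts of a gene relative to the size of its library after TMM scaling, and comparisons between genes in CPM per kilobase of exon. The most abundant of the 40 was PSAP, the precursor of the saposin activators, with a median of 125.4 CPM per kilobase and a range of 102.4 to 159.2 over the 35 libraries. The protease CTSL followed with a median of 38.81, the proton pump accessory protein ATP6AP1 with 31.3, the ATG8 protein GABARAPL2 with 26.17 and the cargo receptor SQSTM1 with 23.61 CPM per kilobase. PSAP stood above every other gene in all libraries, while the ranges of CTSL, ATP6AP1, GABARAPL2 and SQSTM1 overlapped. The transcription factor TFEB was the lowest with a median of 0.8805 CPM per kilobase, below the kinase gene ULK2 with 1.459 and the lipid-binding protein WIPI1 with 1.527. The widest relative ranges belonged to the protease TPP1, whose highest library stood at 3.78 times its lowest, to TFEB with 3.57 times and to the sialidase NEU1 with 3.56 times.

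**Figure D1:**
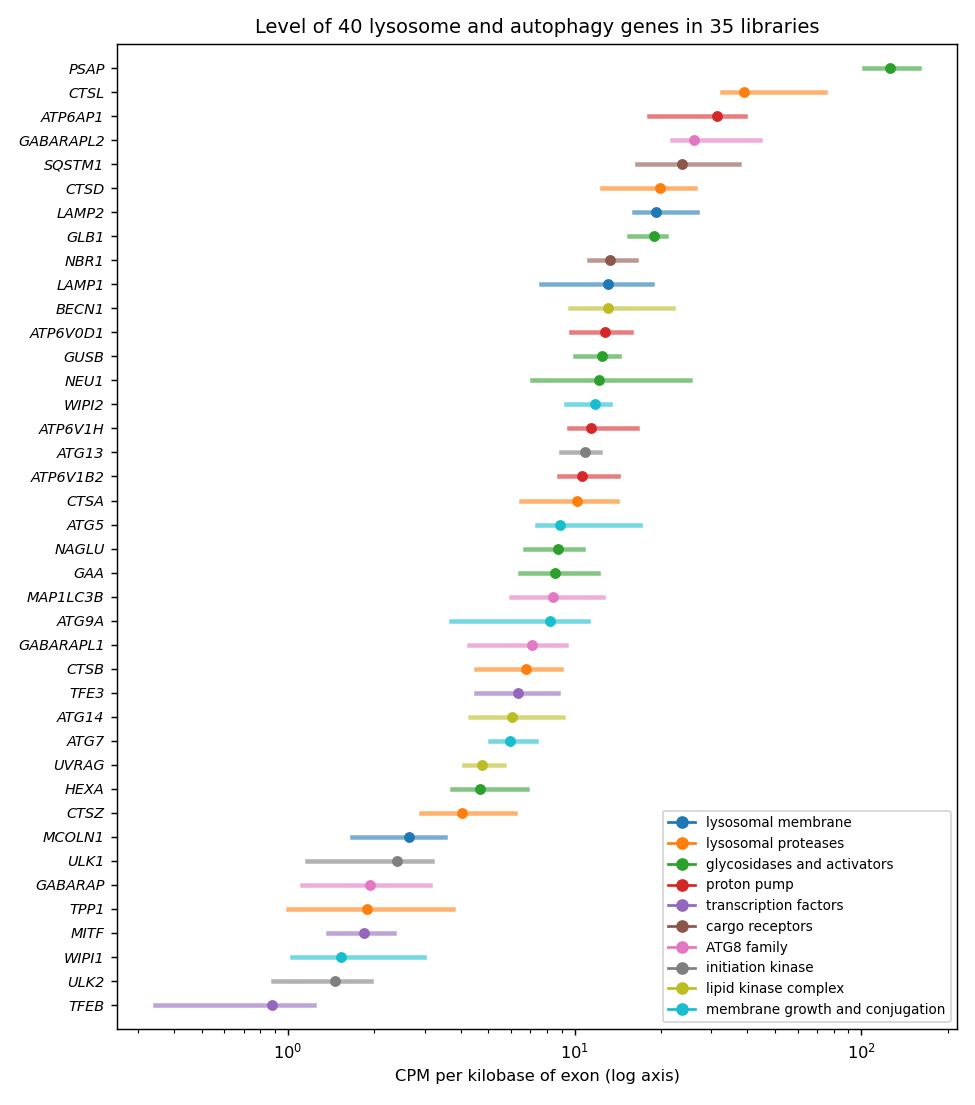
Level of each of the 40 genes in CPM per kilobase of exon on a log axis, ordered by median and coloured by role; the dot is the median and the bar runs from the lowest to the highest of 35 libraries. PSAP lies highest at a median of 125.4 and TFEB lowest at 0.8805.

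Each library held 16.8 to 50.8 M counts (median 25.6 M), and the 40 genes together took 2113 to 3130 CPM before that scaling. Every siPOOL target was lower in its depletion, at 8.36% to 56.1% of its controls, with no overlap of libraries. The marker VIM (317 to 699 CPM) was present in every library, PAX2 was low (0.317 to 1.86 CPM) and NEFL stood at 39.2 to 112 CPM. Among markers of other cell types, CD3E was at 0 in all 35. The leukocyte marker CD14 (0.0374 to 0.948 CPM) and the fibroblast marker COL1A1 (1.23 to 8.7 CPM) were above 0 in every library. In the first set the numbers stood apart: ribosomal protein genes took 9.91% to 15.8% of counts in the 6 libraries numbered 1 and 7.11% to 9.67% in the 7 numbered 2, against 5.188% to 8.004% in the other 22 libraries. The 40 genes took 2113 to 2463 CPM, likewise unscaled, in the libraries numbered 1 of that set and 2390 to 2589 in those numbered 2.

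A gene was called where the quasi-likelihood test of edgeR gave a Benjamini-Hochberg adjusted p under 0.05 over all 19275 genes, and all adjusted p-values here come from that test unless another is named. Over 14 comparisons (9 depletions, 3 starvations and 2 depletions in starved cells), 27 of the 40 genes were called at least 1 time and 13 never, with 61 calls in all. Between 0.254% and 16.8% of all genes were called in each single comparison. The share of all genes called in at least 1 of the 14 was not counted, so the 27 of 40 has no matching share beside it. Of the 61 calls, 22 passed with each library or replicate number left out in turn, 4 passed in none of these, and 1 (TPP1 in TSPYL2 depletion) came from groups whose libraries overlapped.

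**Figure D2:**
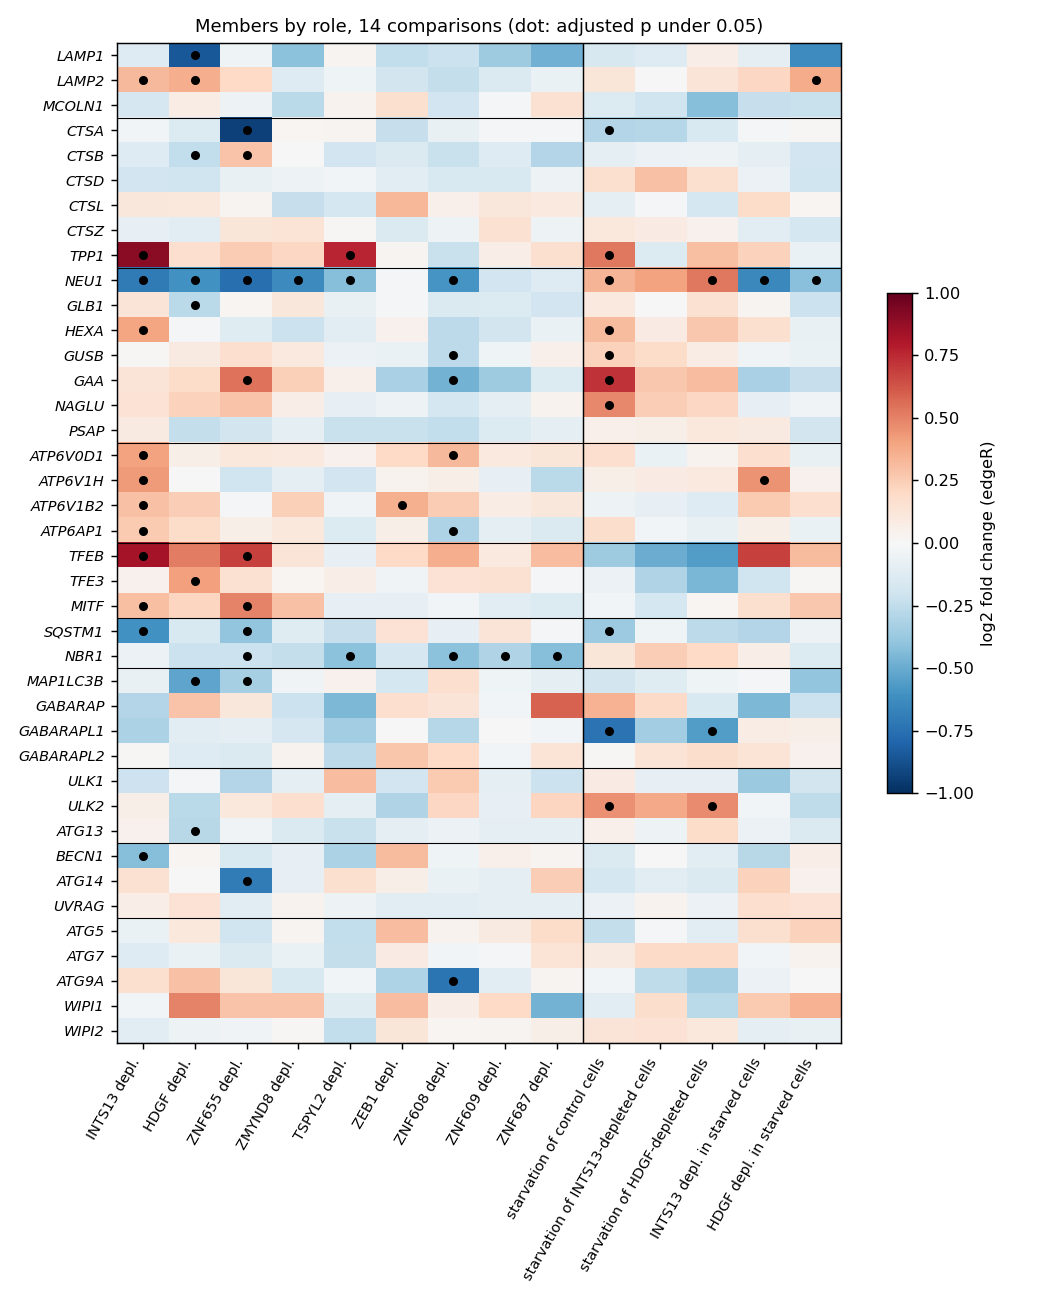
Log2 fold change of the 40 genes (rows, by role) in 14 comparisons (columns), red higher and blue lower, with a dot where the adjusted p was under 0.05. NEU1 carries dots in 10 columns and NBR1 in 5, while 13 rows carry none.

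The gene called most often was NEU1, which encodes the lysosomal sialidase that removes terminal sialic acid from glycoproteins and glycolipids. It was called lower in 6 of the 9 depletions, by 0.43 to 0.76 on the log2 scale, and its log2 fold change was negative in all 9. Depletions within the first set and within the second share controls, so these are not independent comparisons. In the second set NEU1 stood at 82.74, 92.84, 93.75 and 84.1 CPM in the 4 controls. It stood at 50.13 and 58.01 CPM after INTS13 depletion, at 57.64 and 58.78 after HDGF depletion and at 48.16 and 56.42 after ZNF655 depletion. All 6 depleted libraries lay below all 4 controls, and the INTS13 libraries overlapped those of HDGF and of ZNF655, while both HDGF libraries lay above both ZNF655 libraries. The log2 fold change was -0.71 ± 0.10 (SE; adjusted p 2.53e-05) for INTS13, -0.60 ± 0.10 (adjusted p 0.000461) for HDGF and -0.76 ± 0.10 (adjusted p 1.47e-05) for ZNF655. In the third set, NEU1 was at 49.66 and 51.14 CPM after ZMYND8 depletion against 75.57 and 81.08 in the controls. That fall of 0.64 ± 0.12 on the log2 scale (adjusted p 0.00469) came from libraries that did not overlap, but the call was lost without the control numbered 4 and without either ZMYND8 library.

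In the first set the NEU1 controls stood at 56.03, 53.08 and 48.65 CPM. NEU1 was at 33.52 and 36.39 CPM after ZNF608 depletion and at 43.05 and 35.08 after TSPYL2 depletion, below every control. The log2 fold changes were -0.59 ± 0.11 (adjusted p 0.00159) and -0.43 ± 0.11 (adjusted p 0.0337). With the replicate number as a block in the libraries of this set alone, the adjusted p was 0.0173 for ZNF608 and 0.0726 for TSPYL2. In the set alone without the block it was 0.255 and 0.684, so neither call passed there. The ZNF608 call was lost without the ZNF608 library numbered 1 (adjusted p 0.0604), and the TSPYL2 call without control 1, control 2a or the TSPYL2 library numbered 2. NEU1 stood at 58.4 and 45.47 CPM after ZEB1 depletion, 46.75 and 45.16 after ZNF609 depletion and 50.33 and 45.99 after ZNF687 depletion, and these did not pass the test (log2 fold changes of -0.02, -0.19 and -0.13).

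NBR1, a receptor that carries ubiquitinated cargo to the ATG8 membrane, was called in 5 depletions, 4 of them of the first set. Its controls there stood at 127.2, 126.4 and 137.5 CPM and are shared by these 4 depletions, so the 4 calls are not independent. These controls were called higher for NBR1 than the controls of the second set (log2 fold change 0.20, adjusted p 0.00451). NBR1 was at 94.42 and 101.8 CPM after TSPYL2 depletion, at 97 and 99.63 after ZNF608 depletion, at 100.3 and 111.3 after ZNF609 depletion and at 95.23 and 99.21 after ZNF687 depletion. Each of these 8 libraries lay below each control, and this held within number 1 and within number 2. The log2 fold changes were -0.41 ± 0.07 (adjusted p 0.00336), -0.41 ± 0.07 (adjusted p 0.000697), -0.30 ± 0.07 (adjusted p 0.0336) and -0.42 ± 0.07 (adjusted p 0.00253) in that order. With the block in the libraries of the set alone the adjusted p was 0.0603, 0.0362, 0.31 and 0.2, so there the call stood for ZNF608. The calls for TSPYL2 and ZNF608 passed with each library or number left out, but not without a filter on low counts (adjusted p 0.0877 and 0.103) or in the set alone without the block (0.638 and 0.326). The ZNF687 call was lost without the ZNF687 library numbered 1 (adjusted p 0.189), and the ZNF609 call without control 2a, control 2b or either ZNF609 library (highest adjusted p 0.398). In ZNF655 depletion NBR1 fell by 0.22 ± 0.06 on the log2 scale (adjusted p 0.0276), from 111.6, 112.6, 112.3 and 117.2 CPM to 99.01 and 96.37, and this call was lost without control 4b or either ZNF655 library (highest adjusted p 0.128). In the other 4 depletions the libraries also lay below their controls without passing the test, among them ZMYND8 with 103.3 and 104.7 against 118.7 and 127.4 CPM (adjusted p 0.139).

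**Figure D3:**
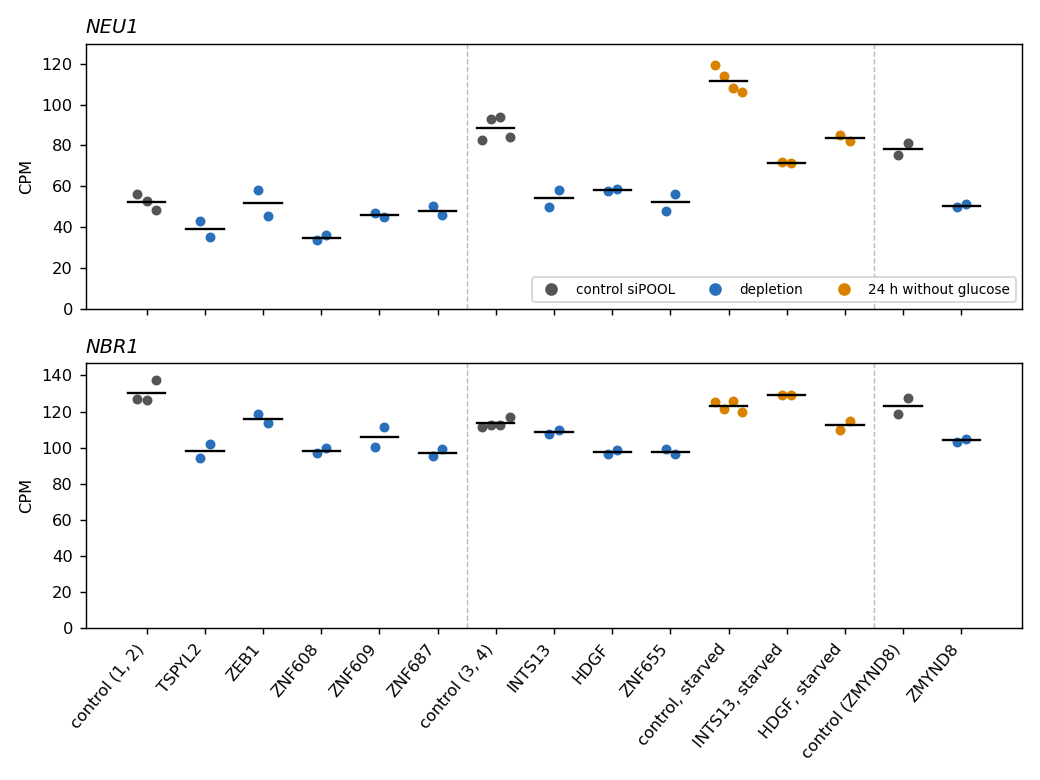
CPM of NEU1 (upper panel) and NBR1 (lower panel) in every library by group; points are libraries, black lines group means, and dashed lines separate the 3 sets. NEU1 was called lower in INTS13, HDGF, ZNF655, ZMYND8, ZNF608 and TSPYL2 depletion and higher in the starved controls. NBR1 lies below its controls in all 9 depletions and was called lower in those of TSPYL2, ZNF608, ZNF609, ZNF687 and ZNF655. Depletions within the first set and within the second share controls and are not independent.

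After INTS13 depletion 12 of the 40 genes were called, 9 higher and 3 lower (30.0%), against 12.8% of all genes tested (6.53% higher and 6.23% lower). The median log2 fold change of the 40 was 0.03, beside 0.01 over all genes. All 4 proton pump genes rose. ATP6V1H, a regulatory subunit of the cytosolic part of the pump, went from 57.11, 56.97, 58.45 and 53.93 CPM in the controls to 75.18 and 76.61. The groups were far apart, the log2 fold change was 0.42 ± 0.07 (adjusted p 0.000125), and the call passed with each library left out. ATP6V0D1, a subunit of the membrane part, rose from 96.0 ± 4.6 (SD, n = 4) to 126.6 ± 2.3 CPM (n = 2), with a log2 fold change of 0.40 ± 0.08 (adjusted p 0.00169). ATP6V1B2, of the catalytic ring, rose by 0.30 ± 0.08 (adjusted p 0.0109) and the accessory subunit gene ATP6AP1 by 0.26 ± 0.08 (adjusted p 0.0223). The ATP6V0D1 call was lost without the INTS13 library numbered 3, the ATP6V1B2 call without either INTS13 library, and the ATP6AP1 call without either of them or control 3b or 4b (highest adjusted p 0.0615, 0.191 and 0.318), although the groups did not overlap. Of 14 other proton pump genes, 0 rose and 1 fell with edgeR, ATP6V0A2 by 0.28 (adjusted p 0.00519), and 2 had an unadjusted p under 0.05.

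Among the hydrolases, the tripeptidyl protease gene TPP1 had the largest change of the 40 after INTS13 depletion, from 12.05, 13.72, 11.9 and 12.02 CPM to 21.95 and 24.48 (log2 fold change 0.90 ± 0.19, adjusted p 0.00153). Both depleted libraries lay above all controls, and the call passed with each library left out. HEXA, the alpha subunit gene of beta-hexosaminidase, rose from 58.5 ± 3.7 (n = 4) to 76.8 ± 5.0 CPM (n = 2), with a log2 fold change of 0.39 ± 0.08 (adjusted p 0.00147, and 0.0953 without the INTS13 library numbered 4). The membrane glycoprotein gene LAMP2 stood at 215.5 and 210.3 CPM against 167.3, 173.1, 168.4 and 170.5 in the controls. It rose by 0.33 ± 0.07 on the log2 scale (adjusted p 0.00233, and 0.086 without the INTS13 library numbered 3). Its partner LAMP1 stood at 91.18 and 97.01 CPM against 104.8, 102.5, 101.5 and 102.9 and did not pass the test (log2 fold change -0.13 ± 0.15, adjusted p 0.654).

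The transcription factor genes TFEB and MITF were called higher after INTS13 depletion. TFEB went from 4.344, 3.411, 3.17 and 4.598 CPM to 6.958 and 6.894, a log2 fold change of 0.83 ± 0.21 (adjusted p 0.00812, and 0.0966 at most without either INTS13 library). MITF rose by 0.30 ± 0.10 (adjusted p 0.0491), and that call was lost with each of the 6 libraries left out. On the autophagy side, SQSTM1, the receptor also known as p62, fell from 251.4, 281.9, 269.3 and 249.6 CPM to 165.1 and 180.4. Its log2 fold change was -0.61 ± 0.11 (adjusted p 0.000229), the libraries did not overlap, and the call passed with each library left out. Genes overlapping SQSTM1 on the opposite strand also fell, MGAT4B by 0.49 (adjusted p 0.0201) and MRNIP by 0.32 (adjusted p 0.0133). The strand setting of the counts was not given in the sources used here, so reads of such pairs cannot be told apart. BECN1, the core of the lipid kinase complex, fell from 85.9 ± 5.1 (n = 4) to 63.8 ± 2.7 CPM (n = 2), or by 0.43 ± 0.11 on the log2 scale (adjusted p 0.0122, and 0.146 at most without either INTS13 library). Its overlapping neighbour PSME3 had a log2 fold change of 0.20 (adjusted p 0.248). None of the 4 ATG8 genes, the 3 initiating kinase genes or the 5 genes of membrane growth and conjugation was called; of these, 1 ATG8 gene had an unadjusted p under 0.05.

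Of 125 other lysosome and autophagy genes tested, 13 were higher and 10 lower after INTS13 depletion (18.4%). VAMP8, a SNARE of autophagosome fusion, went from 6.36 ± 0.83 (n = 4) to 15.6 ± 0.4 CPM (n = 2; log2 fold change 1.29, adjusted p 0.000408). GALC, the galactosylceramidase, rose by 1.13 (adjusted p 5.48e-05) and ATG4A, a protease that processes ATG8 proteins, by 0.73 (adjusted p 0.00126). TMEM41B, a lipid scramblase needed for autophagosome formation, fell by 0.64 (adjusted p 0.000196).

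After HDGF depletion 8 of the 40 genes were called, 2 higher and 6 lower, against 4.49% of all genes (1.89% higher and 2.6% lower). The median log2 fold change was 0.00 for the 40 and for all genes. LAMP1 and LAMP2, the 2 abundant glycoproteins of the lysosomal membrane, moved in opposite directions. LAMP1 fell from 104.8, 102.5, 101.5 and 102.9 CPM to 57.88 and 56.27, a log2 fold change of -0.85 ± 0.16 (adjusted p 0.00109). The gap between the groups was wide relative to their spread, and the call passed with each library left out. LAMP2 rose from 167.3, 173.1, 168.4 and 170.5 CPM to 222.9 and 214, a log2 fold change of 0.36 ± 0.07 (adjusted p 0.00187, and 0.108 without the HDGF library numbered 3).

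Besides NEU1, the beta-galactosidase GLB1 and the cysteine protease CTSB fell after HDGF depletion. GLB1 went from 81.6 ± 3.9 (n = 4) to 67.7 ± 0.9 CPM (n = 2; log2 fold change -0.27 ± 0.08, adjusted p 0.0351). CTSB went from 41.57 ± 0.75 to 35.1 ± 1.1 CPM (log2 fold change -0.24 ± 0.07, adjusted p 0.029). The transcription factor gene TFE3 rose from 27.6 ± 2.0 to 36.7 ± 0.3 CPM (log2 fold change 0.41 ± 0.12, adjusted p 0.0495). Each of these 3 calls was lost without either HDGF library and without 3 of the 4 controls, CTSB without 3a, 4a or 4b and the other two without 3b, 4a or 4b, with adjusted p-values of at most 0.257, 0.276 and 0.34 in the order given.

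Among the autophagy genes MAP1LC3B, the ATG8 protein LC3B, went from 50.84, 53.36, 51.28 and 63.29 CPM to 38.19 and 37.57 after HDGF depletion. It fell by 0.53 ± 0.11 on the log2 scale (adjusted p 0.00371), with no overlap of libraries, and the adjusted p was at most 0.0728 without either HDGF library. FBXO31, which overlaps it on the opposite strand and held about as many counts, fell by 0.47 (adjusted p 0.00349). ATG13, the adaptor of the ULK kinase, fell from 75, 77, 75.86 and 77.24 to 63.02 and 62.5 CPM (log2 fold change -0.28 ± 0.07, adjusted p 0.0194, and at most 0.168 without either HDGF library). Of the 125 other genes 3 were higher and 7 lower (8.0%). SUMF1, which activates sulfatases, went from 19 to 9.065 CPM (log2 fold change -1.07, adjusted p 0.00294), the sulfatase IDS fell by 0.57 (adjusted p 0.00625), the reticulum receptor RETREG1 fell by 0.57 (adjusted p 0.01) and ATG4A rose by 0.56 (adjusted p 0.0263).

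After ZNF655 depletion 10 of the 40 genes were called, 4 higher and 6 lower (25.0%), against 11.5% of all genes (6.57% higher and 4.88% lower). The median log2 fold change was -0.04 for the 40 and 0.02 over all genes. Besides NEU1, CTSA fell, the gene of cathepsin A, which binds and stabilises NEU1 in the lysosome. CTSA went from 78.19, 78.93, 82.11 and 79.1 CPM to 38.08 and 45.41, a log2 fold change of -0.93 ± 0.11 (adjusted p 2.01e-06). No library overlapped, and the call passed with each library left out; PLTP, which overlaps CTSA on the opposite strand, had a log2 fold change of -0.28 (adjusted p 0.328). ATG14, which directs the lipid kinase complex to the growing membrane, went from 33.26, 44.85, 43.29 and 38.52 CPM to 21.63 and 27.66. The depleted libraries lay below all controls, with a log2 fold change of -0.70 ± 0.12 (adjusted p 0.00037), and the call passed with each library left out. Against the controls labelled for ZMYND8, however, where ATG14 stood at 30.01 and 30.41 CPM, the adjusted p was 0.194.

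GAA, the acid alpha-glucosidase that degrades glycogen in the lysosome, rose after ZNF655 depletion from 42.22, 34.27, 36.65 and 33.76 CPM to 53.08 and 54.05. Its log2 fold change was 0.54 ± 0.11 (adjusted p 0.00109), and the call passed with each library left out. Against the controls labelled for ZMYND8, at 48.42 and 47.19 CPM, the adjusted p was 0.444. CTSB rose from 41.57 ± 0.75 (n = 4) to 50.79 ± 0.70 CPM (n = 2; log2 fold change 0.29 ± 0.06, adjusted p 0.00335), the direction opposite to HDGF depletion. TFEB and MITF rose by 0.68 ± 0.21 (adjusted p 0.0345) and 0.50 ± 0.10 (adjusted p 0.0014). Both cargo receptors fell: SQSTM1, from 263.1 ± 15.4 (n = 4) to 199.9 ± 13.9 CPM (n = 2), had a log2 fold change of -0.40 ± 0.10 (adjusted p 0.0123), and NBR1 is given above. MAP1LC3B fell by 0.34 ± 0.11 (adjusted p 0.0447), as did FBXO31 by 0.33 (adjusted p 0.026). The calls of CTSB, TFEB and MAP1LC3B were lost without either ZNF655 library (highest adjusted p 0.127, 0.288 and 0.207), TFEB also without control 3b or 4a and MAP1LC3B without 3b or 4b. The MITF call was lost without the ZNF655 library numbered 4 (adjusted p 0.0802) and the SQSTM1 call without that numbered 3 (adjusted p 0.175).

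With the controls labelled for ZMYND8 in place of those of the second set, 4 of the 10 calls of ZNF655 depletion passed, those of CTSA (adjusted p 0.00713), NEU1 (0.0023), MITF (0.0183) and NBR1 (0.00564). CTSB, SQSTM1 and MAP1LC3B then had log2 fold changes of -0.03, 0.07 and 0.02, with the sign turned. The 2 control groups themselves differed in 6 of the 40 genes (7.66% of all genes): against the second set, the ZMYND8 controls were higher for CTSB (0.32) and GAA (0.38) and lower for CTSA (-0.40), SQSTM1 (-0.47), MAP1LC3B (-0.35) and ATG14 (-0.40). For INTS13 depletion the same replacement lost the calls of ATP6V0D1 (adjusted p 0.0785), TFEB (0.253), MITF (0.164) and SQSTM1 (0.471). For HDGF depletion it lost GLB1 (0.225), TFE3 (0.304) and MAP1LC3B (0.376). Of the 125 other genes 8 were higher and 12 lower after ZNF655 depletion (16.0%), among them the proton pump subunit TCIRG1 (log2 fold change 0.86, adjusted p 0.00469), the hydrolases IDUA (0.83, adjusted p 0.0286) and CTSO (0.82, adjusted p 0.0257), and RUBCN, an inhibitor of autophagosome maturation (-0.79, adjusted p 0.00579).

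**Figure D4:**
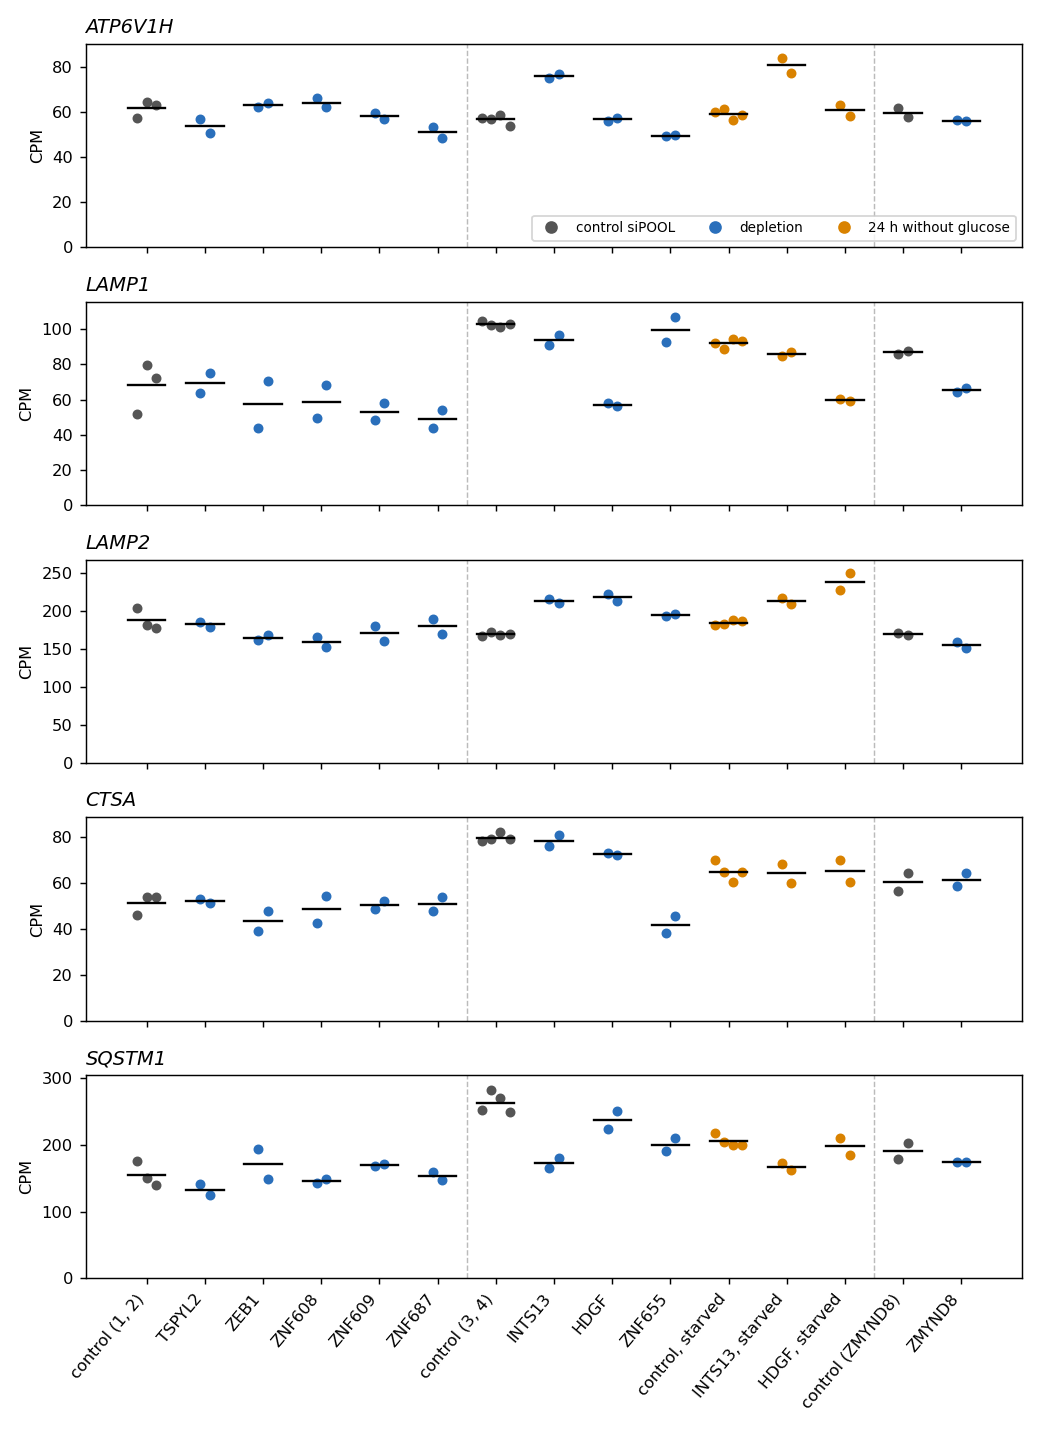
CPM of ATP6V1H, LAMP1, LAMP2, CTSA and SQSTM1 in every library by group; points are libraries (grey control siPOOL, blue depletion, orange without glucose), black lines group means, and dashed lines separate the 3 sets. ATP6V1H is high in INTS13 depletion with glucose (75.18 and 76.61 CPM) and without, LAMP1 falls in HDGF depletion (57.88 and 56.27 CPM) and CTSA in ZNF655 depletion (38.08 and 45.41 CPM).

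The depletions of the second set were also compared with each other directly. Between INTS13 and HDGF depletion 11 of the 40 genes differed, 9 higher with INTS13 depletion and 2 lower, against 8.23% of all genes (4.89% higher and 3.34% lower). LAMP1 was higher with INTS13 depletion by 0.72 ± 0.17 on the log2 scale (adjusted p 0.00879) and ATP6V1H by 0.42 ± 0.08 (adjusted p 0.00128). SQSTM1 was lower by 0.46 ± 0.12 (adjusted p 0.0141). PSAP was higher at 470.8 ± 5.0 against 375.8 ± 13.6 CPM (n = 2 each; adjusted p 0.0309), although it passed in neither depletion against the controls. With each of the 4 libraries left out the ATP6V1H call passed (adjusted p 0.076 without a filter on low counts). The PSAP call was lost with each of the 4 left out, and the LAMP1 and SQSTM1 calls passed in only 1 of the 4 cases. The log2 differences then ran from 0.285 to 0.359 for PSAP, from 0.673 to 0.762 for LAMP1 and from -0.537 to -0.38 for SQSTM1.

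Between INTS13 and ZNF655 depletion 7 genes differed, 5 higher and 2 lower with INTS13 depletion, against 6.8% of all genes (3.14% higher and 3.66% lower). CTSA was higher with INTS13 depletion by 0.91 ± 0.12 (adjusted p 2.26e-05), ATG14 by 0.85 ± 0.14 (adjusted p 0.000275) and ATP6V1H by 0.62 ± 0.08 (adjusted p 1.67e-05). Between HDGF and ZNF655 depletion 5 genes differed, 2 higher and 3 lower with HDGF depletion, against 6.28% of all genes (2.34% higher and 3.94% lower). LAMP1 was lower with HDGF depletion by 0.81 ± 0.17 (adjusted p 0.00429) and CTSB by 0.53 ± 0.08 (adjusted p 5.26e-05), while CTSA was higher by 0.80 ± 0.12 (adjusted p 0.000129). These calls of CTSA, ATG14, ATP6V1H and CTSB passed with each library left out, and the LAMP1 call did not (highest adjusted p 0.0752). For CTSA (-0.40), ATG14 (-0.40) and CTSB (0.32), the ZMYND8 controls differed from those of the second set in the same direction as ZNF655 from the other depletions. No label places ZNF655 in a set, and whether a difference between sets enters its comparisons was not tested. NEU1 was called in none of these 3 direct comparisons, with log2 differences of -0.11 ± 0.12 (INTS13 less HDGF), 0.05 ± 0.12 (INTS13 less ZNF655) and 0.16 ± 0.12 (HDGF less ZNF655). LAMP2, called in INTS13 and in HDGF depletion, was not called between them, where its means were 212.9 ± 3.6 and 218.5 ± 6.3 CPM (n = 2 each; log2 difference -0.04 ± 0.08, adjusted p 0.868).

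After ZMYND8 depletion NEU1 was the only called gene of the 40 (2.5%), against 0.747% of all genes (0.446% higher and 0.301% lower), and the median log2 fold change was -0.02. LAMP1 stood at 64.1 and 66.79 CPM against 85.97 and 87.75, without overlap, but did not pass the test (log2 fold change -0.41 ± 0.17, adjusted p 0.411). The protease CTSC, 1 of the 125 other genes, rose by 0.34 (adjusted p 0.0314), and 0 fell.

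In the first set ZNF608 depletion had the most calls, 7 of 40 with 1 higher and 6 lower (17.5%), against 2.76% of all genes (1.08% higher and 1.68% lower), and a median of -0.07 beside 0.00 over all genes. Of the 7 glycosidases and their activator 3 fell: NEU1, the glucuronidase GUSB and GAA. GAA stood at 34.22 and 34.8 CPM against 40.11, 49.95 and 53.14 in the controls (log2 fold change -0.47 ± 0.12, adjusted p 0.0226). GUSB stood at 38.93 and 43.32 CPM against 46.24, 50.92 and 50.39 (-0.26 ± 0.07, adjusted p 0.0473). Both lay below the controls within number 1 and within number 2. ATG9A, the scramblase of the vesicles that seed the autophagic membrane, stood at 17.52 and 23.75 CPM against 27.34, 37.27 and 38.21. Its log2 fold change was -0.73 ± 0.15 (adjusted p 0.00679), and each depleted library lay below the controls of its own number and of the other.

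The proton pump genes ATP6V0D1 and ATP6AP1 moved in opposite directions after ZNF608 depletion. ATP6V0D1 rose from 79.22, 100.8 and 99.79 to 112.6 and 121.5 CPM (0.33 ± 0.09, adjusted p 0.0405), and ATP6AP1 fell from 113.2, 128.9 and 124.8 to 88.48 and 109.3 CPM (-0.31 ± 0.08, adjusted p 0.0401). Without the ZNF608 library numbered 1 only NBR1 of the 40 genes was called, and with the other left out 4 were. With the block in the libraries of the set alone, NEU1, NBR1 and ATG9A passed (ATG9A adjusted p 0.0106), and GUSB (0.189), GAA (0.119), ATP6V0D1 (0.125) and ATP6AP1 (0.141) did not. In the set alone without the block 0 of the 40 genes were called (ATG9A adjusted p 0.441). Of the 125 other genes 5 fell and 0 rose, among them the acetyltransferase HGSNAT by 0.50 (adjusted p 0.00496), SCARB2, the receptor that delivers glucocerebrosidase, by 0.46 (adjusted p 0.000344), and STX17, a SNARE of autophagosome fusion, by 0.44 (adjusted p 0.00126).

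In TSPYL2 depletion 3 genes were called, 1 higher and 2 lower (7.5%), against 2.22% of all genes (1.14% higher and 1.08% lower), with a median of -0.08 beside -0.01. NEU1 and NBR1 fell, and TPP1 was called higher at 9.472 and 20.14 CPM against 6.745, 9.394 and 9.751. The TPP1 groups overlapped, since the TSPYL2 library numbered 1 lay between controls. The call (log2 fold change 0.76 ± 0.20, adjusted p 0.044) was lost without the TSPYL2 library numbered 2 and without any 1 of the 3 controls (highest adjusted p 0.96). Of the 125 other genes 4 fell and 0 rose: ATP6AP2, WDR45B, RRAGD and SCARB2, by 0.31 to 0.44. ZEB1 depletion had 1 call (2.5%), against 3.77% of all genes (1.78% higher and 1.99% lower): ATP6V1B2 rose from 82.39, 75.12 and 77.83 CPM to 110.5 and 90.25 (0.35 ± 0.08, adjusted p 0.0138, and 0.0896 with the block in the set alone), a call lost without control 2a, control 2b or the ZEB1 library numbered 1. ZNF609 and ZNF687 depletion each had the NBR1 call (2.5%), against 0.571% of all genes for ZNF609 (0.192% higher and 0.379% lower) and 0.254% for ZNF687 (0.0674% higher and 0.187% lower), and 0 of the 125 other genes were called in either.

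The replicate number pairs the libraries of the first set, and the counts there depended on how it entered. The controls there are numbered 1, 2a and 2b, while each depletion has 1 library of each number. Fold changes given without the block are therefore not balanced by number. With the number as a block over all libraries, 13, 5, 12, 1 and 5 of the 40 genes were called for TSPYL2, ZEB1, ZNF608, ZNF609 and ZNF687. With the block in the libraries of the set alone, 0, 0, 3, 0 and 0 were called. The controls of the first and second sets differed in 20 of the 40 genes (48.3% of all genes), among them NEU1 (log2 fold change -0.75 in the first set) and SQSTM1 (-0.76), so each depletion of the first set is read against the controls of that set.

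Glucose starvation of control cells called 10 of the 40 genes, 7 higher and 3 lower (25.0%), against 16.8% of all genes (8.77% higher and 8.05% lower), with a median of 0.05 beside 0.01. Of the 7 glycosidase and activator genes, 5 were called higher and GLB1 (0.10, adjusted p 0.289) and PSAP (0.05, adjusted p 0.673) were not. The median log2 fold change of the 7 was 0.32 and all 7 values were positive, beside 9763 positive values among the 19275 genes tested. Of the 125 other lysosome and autophagy genes, other hydrolases among them, 55 values were positive, with a median of -0.01. GAA had the largest rise, from 42.22, 34.27, 36.65 and 33.76 CPM to 58.69, 58.43, 61.68 and 63.24 without glucose. All starved libraries lay above all fed ones, with a log2 fold change of 0.72 ± 0.09 (adjusted p 3.69e-06). NAGLU, which degrades heparan sulfate, rose from 21.3 ± 1.6 to 29.7 ± 2.1 CPM (n = 4 each; 0.48 ± 0.10, adjusted p 0.000814). NEU1 rose from 82.74, 92.84, 93.75 and 84.1 to 119.2, 113.8, 108.1 and 106 CPM (0.34 ± 0.08, adjusted p 0.00406), again without overlap. HEXA rose by 0.32 ± 0.07 (adjusted p 0.00142) and GUSB by 0.23 ± 0.06 (adjusted p 0.0048).

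Of the proteases, TPP1 rose and CTSA fell in starved control cells. TPP1 went from 12.05, 13.72, 11.9 and 12.02 CPM to 19.16, 16.44, 21.47 and 14.66 (0.53 ± 0.16, adjusted p 0.0207), and CTSA from 78.19, 78.93, 82.11 and 79.1 to 69.78, 64.82, 60.45 and 64.5 (-0.30 ± 0.09, adjusted p 0.017). Neither pair of groups overlapped, but the CTSA call was lost without starved control 4a (adjusted p 0.0608) and the TPP1 call without fed control 4a or 4b or starved control 3a or 4a (highest adjusted p 0.0921). The other 8 calls passed with each library left out. With control libraries of the same number summed to 1, an alternative chosen after seeing the data that leaves 2 fed and 2 starved controls, the calls of GAA (adjusted p 0.0027), GABARAPL1 (0.00189) and ULK2 (0.0408) passed. Those of NAGLU (0.0619), HEXA (0.094), SQSTM1 (0.0984), NEU1 (0.136), GUSB (0.156), CTSA (0.201) and TPP1 (0.202) did not, and GUSB was also lost without a filter on low counts (0.237).

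On the autophagy side GABARAPL1, an ATG8 protein of the GABARAP branch, fell from 27.93, 31.76, 33.52 and 32.31 CPM to 19.31, 17.33, 18.96 and 19.74 in starved control cells. Its log2 fold change was -0.74 ± 0.09 (adjusted p 2.38e-06), with no overlap. SQSTM1 fell from 251.4, 281.9, 269.3 and 249.6 to 216.8, 203.5, 199.3 and 200 CPM (-0.36 ± 0.08, adjusted p 0.00332). Its neighbours MGAT4B and MRNIP had log2 fold changes of 0.05 and 0.15 there and did not pass the test. ULK2, a kinase of autophagy initiation, rose from 10.25, 12.08, 11.51 and 12.06 to 14.55, 16.69, 16.31 and 15.45 CPM (0.46 ± 0.09, adjusted p 0.000789). None of the 4 proton pump genes, the 3 transcription factor genes or the 3 membrane protein genes was called with edgeR, with 2, 0 and 1 of them at an unadjusted p under 0.05. Of the 125 other genes 13 rose and 5 fell (14.4%), among the former the hydrolase IDUA (0.70, adjusted p 0.0218), the cholesterol carrier NPC2 (0.61, adjusted p 0.022), HGSNAT (0.56, adjusted p 1.43e-05) and the chloride transporter CLCN7 (0.55, adjusted p 0.000392).

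**Figure D5:**
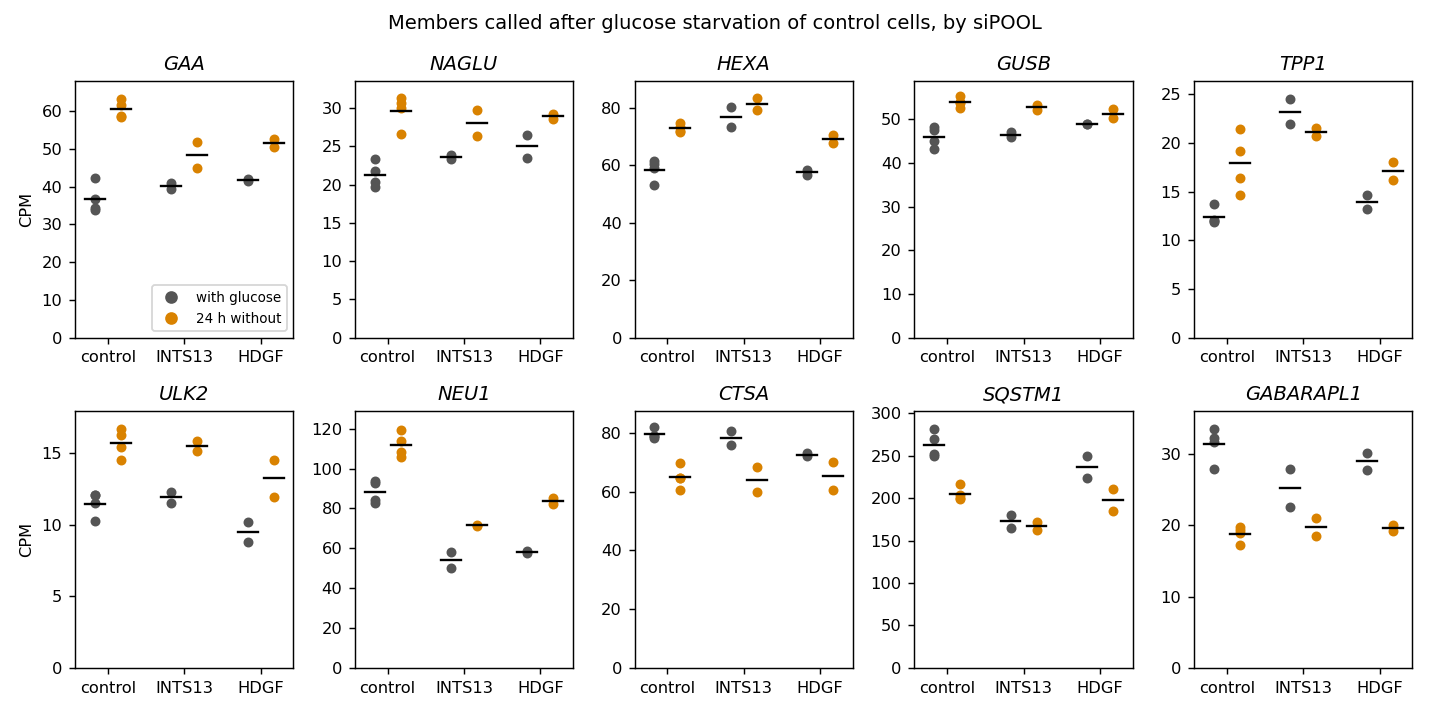
CPM of the 10 genes called in starved control cells, with and without glucose, in control, INTS13-depleted and HDGF-depleted cells; grey points are libraries with glucose, orange points libraries without, and short black lines group means. GAA reaches 58.43 to 63.24 CPM in starved controls, against 44.81 and 51.79 in starved INTS13-depleted and 52.55 and 50.55 in starved HDGF-depleted cells.

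In HDGF-depleted cells starvation called 3 of the 40 genes, 2 higher and 1 lower (7.5%), against 3.54% of all genes (2.09% higher and 1.45% lower). NEU1 rose from 57.64 and 58.78 to 85.34 and 82.32 CPM (0.53 ± 0.12, adjusted p 0.00924), ULK2 by 0.48 ± 0.13 (adjusted p 0.0401), and GABARAPL1 fell by 0.56 ± 0.12 (adjusted p 0.0104). The libraries did not overlap, but with any 1 of the 4 libraries left out 0 or 1 gene was called. In INTS13-depleted cells starvation called 0 of the 40 with edgeR, against 1.32% of all genes (0.856% higher and 0.467% lower). There, 10 had an unadjusted p under 0.05, and DESeq2 called 2, NEU1 (adjusted p 0.0391) and NBR1 (adjusted p 0.00851), both higher. NEU1 stood at 71.83 and 71.36 CPM there against 50.13 and 58.01 with glucose (0.41, adjusted p 0.0773). Outside the 40, ATP6V0A2, a membrane subunit of the pump, rose in starved INTS13-depleted cells (0.31, adjusted p 0.0393). In starved HDGF-depleted cells 4 rose: CLCN7, MANBA, HGSNAT and FNIP1, by 0.42 to 0.56. These groups hold 2 libraries each, against 4 and 4 for the controls.

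Whether the depletions changed the response to starvation was tested as an interaction. None of the 40 genes passed for INTS13 (0.0156% of all genes did) or for HDGF (0% of all genes), with edgeR or with DESeq2; 4 and 3 genes had an unadjusted p under 0.05. For NEU1 the difference between responses was 0.07 ± 0.14 with INTS13 and 0.19 ± 0.14 with HDGF depletion (adjusted p 1 for both). For GAA it was -0.45 ± 0.15 (adjusted p 0.608) and -0.42 (adjusted p 0.922). For TPP1 with INTS13 depletion it was -0.67 (adjusted p 0.759), TPP1 being at 21.95 and 24.48 CPM with glucose and 20.7 and 21.51 without. In a fit of the second set alone the responses of TPP1 (-0.66, adjusted p 0.0336) and GAA (-0.44, adjusted p 0.0393) differed with INTS13 depletion.

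In starved cells INTS13 depletion called 2 of the 40 genes, 1 higher and 1 lower (5.0%), against 3.86% of all genes (2.32% higher and 1.54% lower). NEU1 stood at 71.83 and 71.36 CPM against 119.2, 113.8, 108.1 and 106 in starved controls (-0.64 ± 0.10, adjusted p 0.000248). ATP6V1H stood at 83.99 and 77.06 against 59.84, 61.14, 56.59 and 58.43 CPM (0.45 ± 0.07, adjusted p 0.000192). Neither overlapped, and both calls passed with each library left out. HDGF depletion in starved cells also called 2, 1 higher and 1 lower (5.0%), against 0.659% of all genes (0.265% higher and 0.394% lower). LAMP2 rose from 185 ± 3.2 (n = 4) to 238.9 ± 16.3 CPM (n = 2; 0.37 ± 0.07, adjusted p 0.00854), and NEU1 fell by 0.42 ± 0.10 (adjusted p 0.0492). The LAMP2 call was lost without either HDGF library and the NEU1 call without any 1 of the 6 libraries. LAMP1 stood at 60.21 and 58.99 CPM in starved HDGF-depleted cells against 92.11, 88.89, 94.52 and 93.49 in starved controls, without overlap, and did not pass the test (-0.63 ± 0.16, adjusted p 0.0542). INTS13 depletion in starved cells raised 6 of the 125 other genes and lowered 1, GALC again with the largest change (1.06, adjusted p 0.000421), followed by VAMP8 (1.04, adjusted p 0.0121).

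The 13 genes called in none of the 14 comparisons were PSAP, CTSL, CTSD, CTSZ, MCOLN1, GABARAP, GABARAPL2, ULK1, UVRAG, ATG5, ATG7, WIPI1 and WIPI2. The nearest to the threshold was the phosphoinositide-binding protein gene WIPI2 in TSPYL2 depletion (-0.25 ± 0.08, adjusted p 0.0775). MCOLN1, the calcium channel of the lysosomal membrane, ran from -0.43 in starved HDGF-depleted cells (adjusted p 0.102) to 0.16. UVRAG, of the lipid kinase complex, ran from -0.11 to 0.17, the narrowest span of the 13. The ATG8 gene GABARAP had log2 fold changes from -0.45 to 0.59, the latter in ZNF687 depletion (± 0.19, adjusted p 0.279), at levels of 2.18 to 6.10 CPM, and WIPI1 from -0.47 to 0.50 at 3.5 to 10.2 CPM. Counts of MCOLN1 may include reads of PNPLA6, which overlaps it on the same strand with more counts than MCOLN1 itself.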

How the data were processed

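Raw read counts per gene were deposited by the authors in 1 table for all 35 libraries, described as taken before duplicate removal. Reads came from ribosome-depleted, stranded, single-end libraries and went through cutadapt, FastQC and STAR (hg38; versions not stated), per the submitters' processing notes. How reads were assigned to genes, including strand, is not given in the sources used here. Counts as deposited were filtered with filterByExpr, scaled by TMM and fitted in 1 edgeR quasi-likelihood model (edgeR 4.0.16, R 4.3.3) of 15 group means without a block, with 20 residual degrees of freedom; groups of 2 libraries thus share the spread of all. Between the 2 libraries of a depletion, chi-square over its degrees of freedom ran from 22.1 (ZNF609) to 233 (ZEB1) in the first set. Within the groups of the other sets it ran from 3.1 to 11.3. The shared spread may thus understate that of the first set, and its adjusted p-values may be too small. Genes were called at a Benjamini-Hochberg adjusted p under 0.05, two-sided, over 19275 genes. Values after ± are the SE for log2 fold changes and the SD for CPM.

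The 40 genes and the list of 128 other lysosome and autophagy genes found in the table (125 tested) were chosen with earlier results of these data known. All 40 are accounted for, those called in any comparison with values. Of the other genes at most 4 per comparison are named, those called with the largest change and no overlap; ATP6V0A2 in INTS13 depletion is named beyond this rule, chosen after its values were seen. Promoter sequences are from RefSeq. First-set controls carry different numbers in titles and descriptions; those of the descriptions (1, 2a, 2b) were used, since chi-square over its degrees of freedom was 5.08 between 2a and 2b and 102 and 120 with control 1. Same-numbered libraries deviated together in 15 of 15 pairs of groups of the first set (median r 0.744 over 11558 genes) in 6 of 21 of the second and in the 1 pair of the third (r 0.107). The number was taken to pair the first set only, since pairing by correlation was read from sets with at least 3 pairs. Alternatives were DESeq2 size factors and its Wald test (DESeq2 1.42.0), other filters, the block, each set alone, other controls, and each library left out; control libraries of the same number summed were added after seeing the data. The scripts were tested on simulated data. Starved ZMYND8 libraries were not analysed here.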

Additional observations from a re-analysis of the deposited data

Results flagged for a closer look

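Of 80 pairs of a gene and a group of 4 libraries (the 40 genes in the fed and in the starved controls of the second set), 2 had a library whose gap to the nearest other library took most of the range of the group, and chance alone gives this in about 1 in 20 groups. TPP1 stood at 13.72 CPM in fed control 3b, against 11.9 to 12.05 in the other 3. CTSB stood at 41.12 CPM in starved control 4b, against 37.88 to 38.13 in the other 3.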

How the results depend on the processing

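Counts are of the 40 genes called, and those listed for each setting in this paragraph are only the ones that changed by more than 1.5 times. For INTS13 depletion the count fell from 12 to 8 without a filter and also with control libraries of the same number summed. ATP6V1B2, ATP6AP1 and MITF were lost in both, LAMP2 without a filter and BECN1 with the summed controls. DESeq2 size factors and a stricter filter left every count of the 19 comparisons within 1.5 times. Without a filter the count was 3 for HDGF, 1 for TSPYL2, 0 for ZEB1 and ZNF609, 2 for ZNF608, 1 for HDGF in starved cells and 4 for INTS13 against HDGF. With the replicate number as a block over all libraries it was 13 for HDGF, 3 for ZMYND8, 13 for TSPYL2, 5 for ZEB1, 12 for ZNF608, 5 for ZNF687, 3 and 6 for starvation of INTS13- and HDGF-depleted cells, 8 and 4 for INTS13 and HDGF in starved cells and 10 for HDGF against ZNF655. With the libraries of a set alone it was 14 for HDGF, 18 for ZNF655, 6 for ZMYND8, 0 in all 5 depletions of the first set, 20, 9 and 12 for starvation of control, INTS13- and HDGF-depleted cells, 11 and 8 for INTS13 and HDGF in starved cells, 2 for the INTS13 interaction, 14 for INTS13 against ZNF655 and 16 for HDGF against ZNF655. With the replicate block in the set alone it was 14, 16 and 7 for HDGF, ZNF655 and ZMYND8, 3 for ZNF608 and 0 for the other 4 depletions of the first set, 19, 9 and 11 for the starvations, 11 and 7 in starved cells, 2 for the INTS13 interaction, and 13 and 15 for INTS13 and HDGF against ZNF655. The cause of these differences was not tested. The DESeq2 Wald test called 2 for ZMYND8, 7 for TSPYL2, 3 for ZNF687, 2 and 5 for starvation of INTS13- and HDGF-depleted cells and 5 for INTS13 in starved cells. With control libraries of the same number summed, chosen after seeing the data, it was 4 for HDGF, 6 for ZNF655, 0 for ZEB1 and ZNF609, 1 for TSPYL2, 2 for ZNF608, 3 for starvation of control cells and 0 for HDGF in starved cells. With the controls labelled for ZMYND8, ZNF655 had 5.

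With each library or number left out, the counts ran from 5 to 12 for INTS13, 2 to 7 for HDGF, 5 to 10 for ZNF655, 0 to 1 for ZMYND8, 1 to 14 for TSPYL2, 0 to 15 for ZEB1, 1 to 9 for ZNF608, 0 to 6 for ZNF609, 0 to 5 for ZNF687, 8 to 10 for starvation of control cells, 0 to 1 for starvation of HDGF-depleted cells, 2 to 3 for INTS13 in starved cells, 0 to 1 for HDGF in starved cells, 2 to 4 for INTS13 against HDGF, 5 to 5 for INTS13 against ZNF655 and 3 to 3 for HDGF against ZNF655. The extremes were 5 without INTS13 library 3, 2 without HDGF library 3, 5 without either ZNF655 library, 14 for TSPYL2 without number 2, 15 without ZEB1 library 2, 1 without ZNF608 library 1, 6 for ZNF609 and 5 for ZNF687 without number 1. Where 1 library remains in a group, it is assumed to vary like the other groups. Single genes turned sign with the controls labelled for ZMYND8: CTSA in INTS13 depletion (0.37, adjusted p 0.0378), and in ZNF655 depletion CTSB (-0.029), SQSTM1 (0.072) and MAP1LC3B (0.015). CTSD in TSPYL2 depletion ran from -0.259 without number 1 to 0.348 (adjusted p 0.036) without number 2. Each depleted group holds 2 libraries, which limits the precision; the lowest count of the 40 genes in any library was 46, for TFEB.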
